A study of Caenorhabditis elegans with 4 samples.

Results

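The 2 broad domains of Caenorhabditis elegans chromosome IV that carry most piRNA genes held 584 of the 14199 HDA-1 peaks in the whole-series list. The right domain, from 13.5 to 17.2 Mb on the WS220 build, had 306 of them, and the left domain, from 4.5 to 7 Mb, had 278. A peak was placed in a domain by its midpoint, so its height and width played no part in the choice. The other 1561 peaks of chromosome IV are called the rest of IV here. They lie in 3 stretches: 712 from the left end of the chromosome up to the left domain, 817 between the 2 domains, and 32 in the short tip beyond the right domain.

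HDA-1, a class I histone deacetylase that works in corepressor complexes such as NuRD and SIN3, was mapped by ChIP-seq with an affinity-purified rabbit polyclonal antibody. Each library came from whole wild-type worms of the N2 strain, kept at 20 °C and collected as L3 larvae with males and hermaphrodites mixed, so germ-line and somatic nuclei are not separated. There were 2 ChIP libraries (replicates 1 and 2) and 2 libraries of input DNA. The labels do not say whether the replicates came from separate cultures, and the inputs were not analysed here. Peaks of the domains numbered 468 of 11762 in the list of replicate 1 and 446 of 9901 in that of replicate 2.

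piRNAs of this nematode, also called 21U-RNAs, are short germ-line RNAs that the Argonaute protein PRG-1 carries to target transcripts, some of them foreign or derived from transposons. Targeting leads to silencing in the nucleus, where histone marks of closed chromatin build up on the target. Most worm piRNA genes are tiny independent units with a promoter motif of their own, packed into introns and intergenic DNA of broad clusters on chromosome IV. In the RefSeq table of the later WBcel235 assembly, 14714 of 15363 piRNA genes (95.8%) are on chromosome IV. The positions of single piRNA genes on WS220 were not used here, so the domains were taken by their edges alone and no peak was assigned to a piRNA gene. No genome sequence of the build was used either, and members are given by position.

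HDA-1 peaks were sparser in the piRNA domains than in the rest of IV. Density in the whole-series list was 94.2 peaks per Mb in the domains (95% counting interval 86.7 to 102) and 138 in the rest of IV (131 to 145). In replicate 1 the values were 75.5 in the domains and 117 in the rest, and in replicate 2 they were 71.9 and 98. Peaks covered 3.13% of the domains and 4.75% of the rest in the whole-series list, 2.5% and 3.88% in replicate 1, and 2.07% and 2.85% in replicate 2. A quasi-Poisson regression of counts in 62 domain bins and 113 other bins of 100 kb gave a density ratio of 0.681 (95% interval 0.575 to 0.807, n = 175 bins, adjusted p = 1.40e-04 over 10 tests). Bin counts varied 3.13 times as much as independent peaks would, and the test takes that spread as its error. Its units are stretches of the genome and not animals, so the p-value says nothing of the spread between cultures.

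The right domain was the sparser of the pair, with 82.7 peaks per Mb (73.7 to 92.5) against 111 (98.5 to 125) in the left domain. Both replicates had the same order, with 64.1 and 92.4 peaks per Mb in replicate 1 and 63.8 and 84 in replicate 2, right before left. The counting intervals of the 2 domains did not overlap in the whole-series list. The difference between the domains nevertheless did not pass the bin test, which counts the spread between bins, with a log2 ratio of -0.43 (interval -0.86 to 0.00295, n = 62 bins, adjusted p = 0.217). Each domain was also set alone against the rest of IV, a comparison added after the values were seen. The right domain passed with a log2 ratio of -0.74 (n = 150 bins, adjusted p = 6.24e-05 by the same regression). The left domain did not, with -0.31 (n = 138 bins, adjusted p = 0.217).

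**Figure D1:**
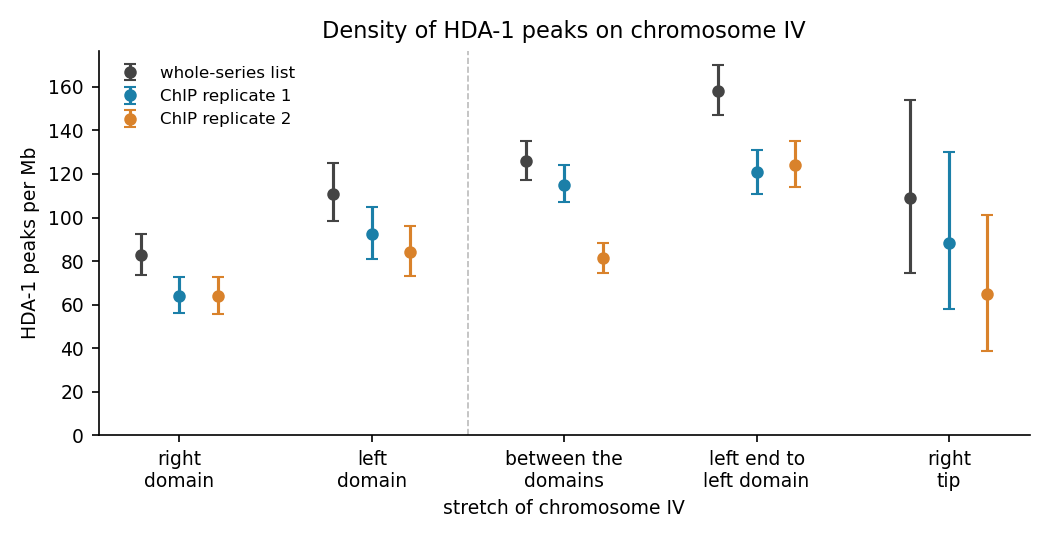
Density of HDA-1 peaks (peaks per Mb, vertical axis) in 5 stretches of chromosome IV for the whole-series list and both ChIP replicates. Points are counts divided by length, bars are exact 95% Poisson intervals that treat peaks as independent, and the dashed line separates the domains from the rest; the right domain is lowest in the whole-series list at 82.7, and the stretch at the left end is highest at 158.

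The rest of IV is not uniform, and the size of the deficit depends on which stretch the domains are set against. From the left end of the chromosome to the left domain there were 158 whole-series peaks per Mb, and between the domains there were 126. In replicate 2 the stretch between the domains had only 81.2 peaks per Mb, against 115 in replicate 1. The left domain, with 84 in replicate 2, was therefore no sparser than its inner neighbour in that list. Set against the stretch between the domains alone, the log2 density ratio of both domains was -0.42 in the whole-series list (n = 127 bins, adjusted p = 0.00953, same regression). Over the same n = 127 bins it was -0.61 in replicate 1 (adjusted p = 1.39e-04) and -0.18 in replicate 2 (adjusted p = 0.363), so the difference did not pass in replicate 2 on its own.

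At the same relative positions of the other autosomes, peak density was nearer to that of the rest of each chromosome. The ratio of the domains to the rest was 0.681 on IV in the whole-series list, and the matching stretches gave 0.869 on I, 1.06 on II, 1.06 on III and 0.782 on V. IV was lowest of the 5 in each replicate too, with 0.647 against 0.705 to 1.02 in replicate 1 and 0.734 against 0.904 to 1.06 in replicate 2. These ratios are descriptions without a test. The order within the pair was not peculiar to IV: the right stretch had 0.744 times the density of the left on IV and 0.666 times on V, while II had 1.28 times. Taken alone, the right stretch of V was sparse too, with 75 whole-series peaks per Mb against 115 in the rest of V. In replicate 1 it had 48.4 against 95.6, and in replicate 2 it had 69.8 against 78.9. The right domain of IV had 82.7 against 138 in the whole-series list, 64.1 against 117 in replicate 1, and 63.8 against 98 in replicate 2. Relative to the rest of its chromosome, the right stretch of V was thus the lower in replicate 1, and that of IV in the other lists. In the whole-series list the right stretch had 151 against 172 on I, but was denser than the rest on II (177 against 153) and III (173 against 165).

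Within the domains, peaks were spread unevenly from one 100-kb bin to the next. The right domain had a median of 7 whole-series peaks per bin (lowest 1, highest 21 over 37 bins), and the left domain had 9 (4 to 25 over 25 bins). The stretch between the domains had 12 (2 to 28 over 65 bins). Bins with at most 5 peaks made up 27.4% of the domain bins (17 of 62) and 5.36% of the rest (6 of 112 full bins). In replicate 1 these shares were 40.3% and 10.7%, and in replicate 2 they were 45.2% and 17%. Crowded bins with at least 20 peaks were 4 of 62 in the domains and 18 of 112 in the rest, of which 16 lay in the stretch at the left end.

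**Figure D2:**
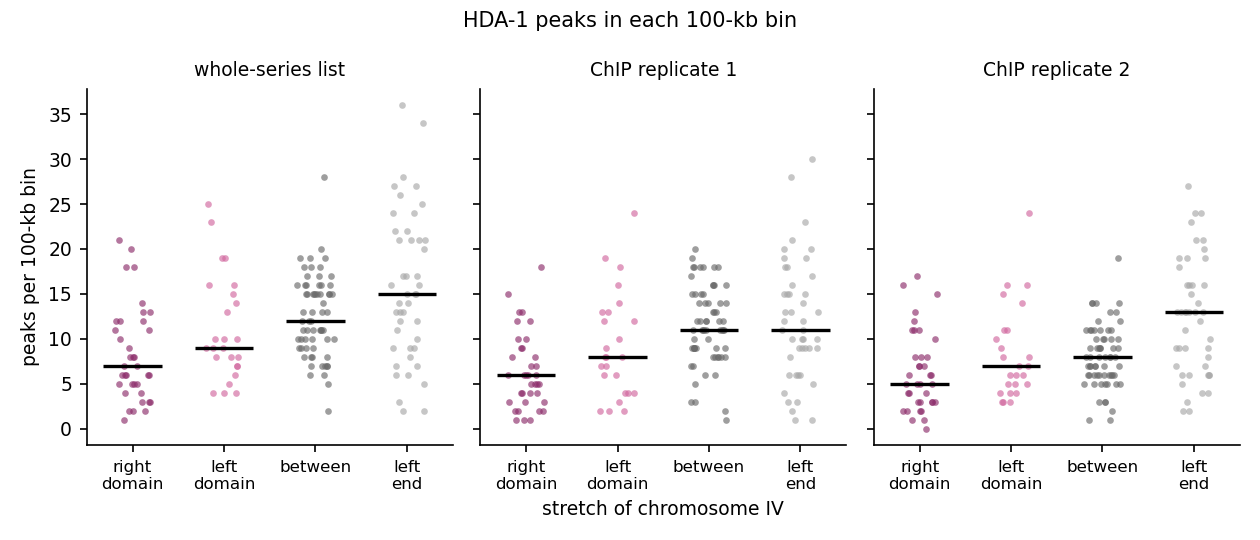
Number of HDA-1 peaks (vertical axis) in each 100-kb bin of chromosome IV, by stretch, in the 3 lists. Each point is a bin and the black line is the median, which in the whole-series list is 7 in the right domain, 9 in the left domain, 12 between the domains and 15 at the left end.

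The densest bin of the right domain, at 16600001 to 16700000, had 21 whole-series peaks, with 12 from replicate 1 and 17 from replicate 2. That of the left domain, at 4700001 to 4800000, had 25, with 24 from each replicate. The sparsest right bin, at 16200001 to 16300000, had 1 whole-series peak, 1 in the list of replicate 1 and none in that of replicate 2. In the left domain 3 bins tied for the lowest count at 4 whole-series peaks. They start at 5200001, 5400001 and 6200001, and each had 2 peaks of replicate 1 and 3 of replicate 2. Across bins the counts of the replicates went together, with a Spearman rho of 0.773 (Pearson r 0.774) over the 62 domain bins and 0.711 (0.732) over 112 bins of the rest, given without a test since all bins come from the same 2 libraries.

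**Figure D3:**
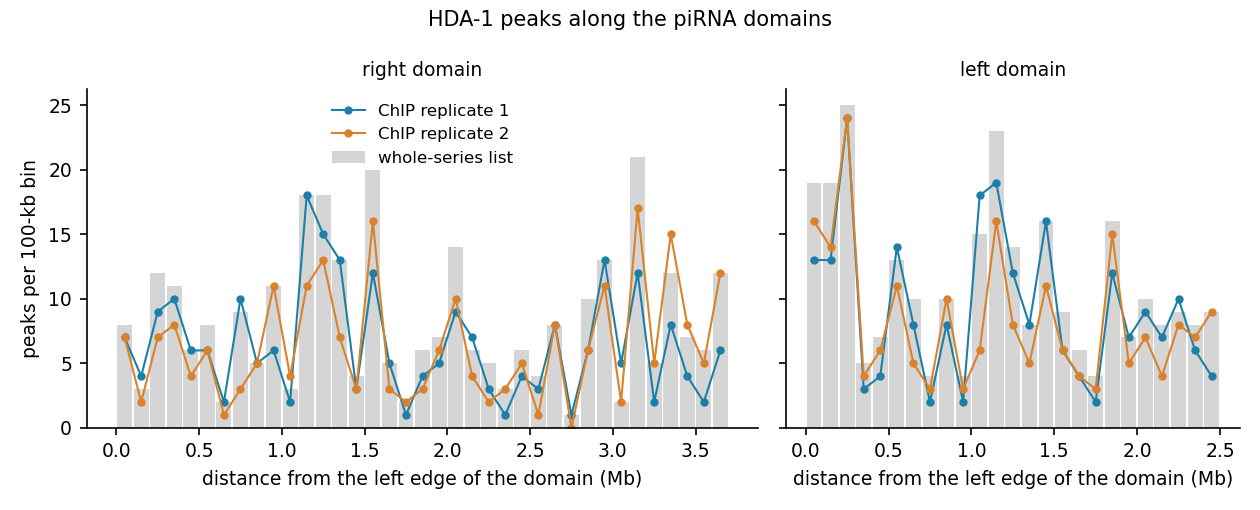
HDA-1 peaks per 100-kb bin (vertical axis) against distance from the left edge of each domain in Mb, for the right domain and the left domain. Grey bars are the whole-series list and lines are the 2 ChIP replicates; both replicates reach 24 peaks in the bin that starts 0.2 Mb into the left domain, and both are at or near 0 in the sparsest bin of the right domain.

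Long stretches with no peak took up more of the domains than of the rest of IV. Gaps of at least 50 kb took up 27.5% of the domains (24 gaps) and 5.41% of the rest of IV (10 gaps) in the whole-series list. The right domain had 33% of its length in such gaps and the left domain 19.5%. In replicate 1 the shares were 38.0% in the domains and 11.2% in the rest, and in replicate 2 they were 38.8% and 16.8%. Outside gaps of 20 kb or more, the domains had 254 whole-series peaks per Mb and the rest had 246, with 268 and 238 for replicate 1, and 253 and 228 for replicate 2. The 2 domains were unlike in this: the right had 295 and the left 221 in the whole-series list. They had 276 and 260 in replicate 1, and 320 and 205 in replicate 2. Leaving out such gaps removed 63% of the domains and 43.8% of the rest in the whole-series list. With only gaps of 50 kb or more left out, the domains were not denser than the rest in any list. The whole-series densities were then 130 peaks per Mb in the domains and 146 in the rest. They were 122 and 131 in replicate 1, and 118 and 118 in replicate 2. The shares of length in gaps follow in part from density itself, since fewer peaks leave longer gaps, and read coverage within the gaps was not analysed here.

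Gaps under 1 kb made up 32.5% of the gaps in the domains (189 of 582), near the 35% of all gaps on IV and the 35.9% in the rest. The share was 35.4% in the right domain and 29.2% in the left. That order was reversed in replicate 1 (24.6% right, 27.4% left) and kept in replicate 2 (33.2% and 29.2%). For domains against rest the replicates did not have the same order either, with 26% in the domains and 34.1% in the rest in replicate 1, and 31.3% and 29.9% in replicate 2. The median gap was 2828 bp in the domains and 2483 bp in the rest, but the upper quartile was 13384 bp against 8963 bp. On the log2 scale the mean gap in the domains was longer by 0.33 (interval -0.02 to 0.68), which did not pass in least squares with errors clustered on bins (n = 175 bins, adjusted p = 0.217). In the same test the replicate 1 list gave 0.52 (n = 175 bins, adjusted p = 0.05, at the threshold). The replicate 2 list gave 0.21 (n = 174 bins, adjusted p = 0.38). In the whole-series list the right domain's mean differed from the left domain's by 0.11 (-0.51 to 0.73, n = 62 bins, adjusted p = 0.718 in the same test).

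**Figure D4:**
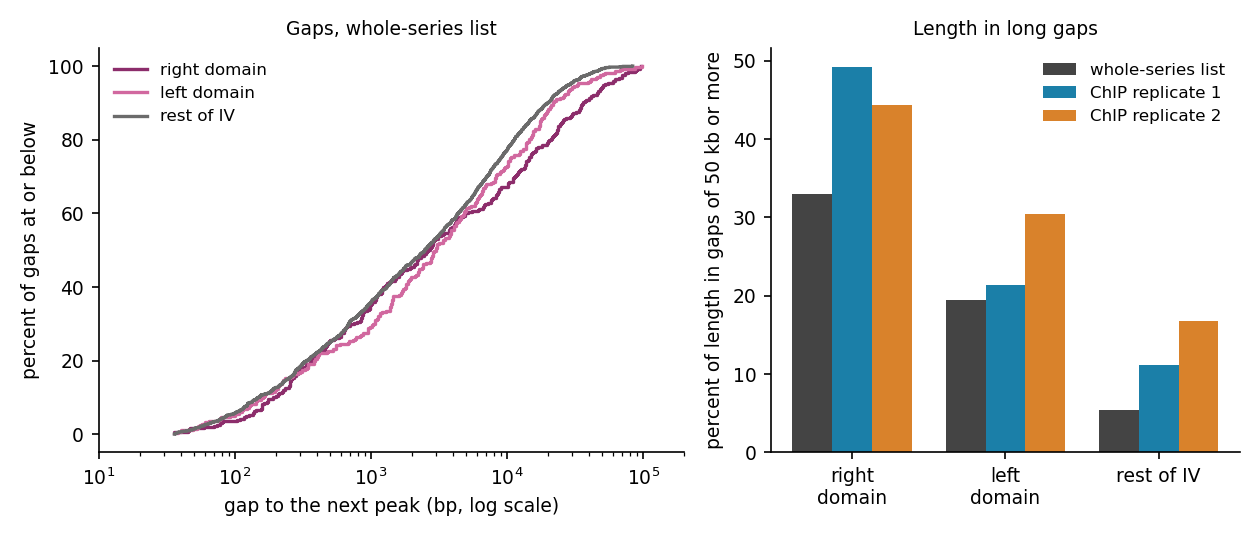
Left panel, percent of gaps (vertical axis) at or below a given length in bp (log scale) for the right domain, the left domain and the rest of IV in the whole-series list. Right panel, percent of each stretch's length in gaps of 50 kb or more in the 3 lists; the right domain stands at 33% and the rest of IV at 5.41% in the whole-series list.

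The longest gap between neighbouring whole-series peaks in the right domain was 96.4 kb, from 16505161 to 16601584, and ended at the start of that domain's densest bin. It held 3 peaks of replicate 1 and none of replicate 2 that the whole-series list lacks. The next were 93.6 kb from 13542028 to 13635588, with 1 such peak of replicate 2, and 89.5 kb from 14128502 to 14217963, with 2 of replicate 1. In the left domain the longest were 98.3 kb from 6648921 to 6747235, 87.3 kb from 6206735 to 6294073 and 69.7 kb from 4810966 to 4880692. Of these left gaps, that of 98.3 kb held 1 peak of replicate 1, and neither replicate had a peak inside the other two. Of the 584 domain peaks, 292 (50%) stood alone with no neighbour within 1 kb, and 45.8% did in the rest; in replicate 1 these shares were 58.3% and 47.6%, and in replicate 2 they were 51.3% and 51.7%. In the right domain 108 of 306 whole-series peaks (35.3%) were in runs of 3 or more with gaps under 1 kb, against 66 of 278 (23.7%) in the left domain and 32.7% in the rest. This order did not hold in replicate 1, where the shares were 20.3%, 22.1% and 30.5%, while replicate 2 had 30.9%, 24.8% and 23.9%.

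The tightest groups were each found in both replicates, though not with equal numbers. In the right domain the 20 kb from 16642662 to 16662661 held 17 whole-series peaks, 9 of replicate 1 and 14 of replicate 2, and 5 of the 17 overlapped both. The 20 kb from 14604729 to 14624728 held 14 whole-series peaks, 14 and 9 in the replicates, with 9 found in both. From 14786497 to 14806496 there were 13, with 11 and 7 in the replicates. In the left domain the 20 kb from 5649261 to 5669260 held 14 whole-series peaks, 12 and 11 in the replicates, with 7 found in both. The group from 5588227 to 5608226 leaned to replicate 1, with 14 peaks and only 4 of replicate 2. The last, from 4641181 to 4661180, had 12 whole-series peaks, with 11 and 7 in the replicates. Peaks alone for at least 20 kb on both sides were few, 23 of 584 in the domains and 19 of 1561 in the rest. Of these lone peaks 11 in the domains (47.8%, exact interval 26.8 to 69.4%) were found in both replicates, a share close to that of all domain members. In the rest it was 6 of 19 (31.6%, 12.6 to 56.6%), with intervals that overlap and no test.

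Single HDA-1 peaks of the domains and of the rest of IV had similar median widths and scores. The median width was 256 bp in the domains and 260 bp in the rest in the whole-series list, 261 and 259 bp in replicate 1, and 230 and 232 bp in replicate 2. In least squares of log2 width with errors clustered on bins, the domains differed from the rest by -0.04 (interval -0.12 to 0.04, n = 175 bins, adjusted p = 0.42). The right domain's peaks had a median of 244 bp and the left domain's 274 bp, a log2 difference of means of -0.10 (-0.25 to 0.04, n = 62 bins, adjusted p = 0.363 in the same test). The replicate lists did not repeat that order, with medians of 261 and 258 bp in replicate 1 and 230 bp in both domains in replicate 2. The interval for domains against the rest corresponds to width ratios of 0.922 to 1.03.

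The widest peak of the right domain came near the size of the widest elsewhere on IV, while the left domain had none above 1190 bp. The widest in the right domain, at 14032492 to 14034644, spanned 2153 bp and was 2115 bp wide in replicate 1 and 2027 bp in replicate 2. It stood apart from other peaks, with the nearest 12246 bp away. The next in the right domain, 1997 bp at 16491496 to 16493492, was 1 peak of 2161 bp in replicate 1 and 4 pieces in replicate 2. A further wide peak there, at 14793471 to 14794928, spanned 1458 bp and met 2 peaks of each replicate. In the left domain the widest was 1190 bp, at 6785053 to 6786242, and fell into 2 pieces in each replicate. It was followed by 1175 bp at 4660053 to 4661227 and 1150 bp at 6096809 to 6097958. The widest peak in the rest of IV spanned 2530 bp. Whole-series peaks that met at least 2 replicate 2 peaks were 25 of 584 in the domains and 83 of 1561 in the rest, so splitting was rare in both.

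The authors' score of a peak, whose meaning is not stated, was used to rank peaks within a list. The median score was 9.68 in the domains and 9.56 in the rest in the whole-series list, 9.60 and 9.35 in replicate 1, and 8.83 and 9.12 in replicate 2. Among domain members 66 of 584 (11.3%, exact interval 8.85 to 14.2%) were in the best-scoring 10% of the whole-series list, and 160 of 1561 (10.2%, 8.79 to 11.9%) in the rest. In the right domain the 34 members among that 10% were spread over 19 bins, with at most 4 in a bin, at 15500001 to 15600000. In the left domain 9 of 32 (28.1%) lay in the single bin from 4700001 to 4800000.

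In the right domain the best-scoring site, at 16845352 to 16845788, tied with 5 others of the genome at the highest whole-series score of 87.7. It ranked 9 in replicate 1 and 2 in replicate 2, and a further strong peak, with a score of 57.8, lay 1600 bp away. A pair of strong sites lay 1263 bp apart, at 15528846 to 15529216 and 15530480 to 15530877. The second of that pair ranked 6 in replicate 1 and 9 in replicate 2, and the first ranked 61 and 67. The site at 16415049 to 16415899 had ranks of 81 and 554. That at 16995432 to 16995890 differed most between the replicates of these 5 right sites, with rank 73 in replicate 1 and rank 2842 in replicate 2, and its nearest neighbour was 14504 bp away.

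All 5 of the highest-scoring left-domain sites found in both replicates lay within the bin from 4700001 to 4800000. The first, at 4720524 to 4720983, ranked 3 in replicate 1 and 7 in replicate 2. Another, at 4727770 to 4728217, ranked 32 in replicate 1 and was the top peak of replicate 2. The site at 4725402 to 4726027 ranked 15 and 24 in the replicates and had a weaker neighbour 60 bp away. The site at 4748262 to 4748837 had ranks of 402 and 260. The site at 4749587 to 4750190 was less even between the replicates, with a score of 87.2 and rank 88 in replicate 1 and a best score of 24.1 and rank 1162 in replicate 2, where it fell into 2 pieces. Sites in both domains were named by a rule on score and support, and the genes at them were not analysed here.

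About as many domain members as other peaks of IV were found in both replicates. Of the domain members 271 of 584 (46.4%, exact interval 42.3 to 50.5%) met a peak of each replicate with an overlap of at least 1 bp, and of the rest 684 of 1561 (43.8%, 41.3 to 46.3%). The share over all 14199 whole-series peaks was 41.9%. Domains and rest differed by 2.59 percentage points (interval -2.22 to 7.40, n = 175 bins, adjusted p = 0.363 in a linear model with errors clustered on bins). The right domain had 135 of 306 (44.1%) and the left domain 136 of 278 (48.9%), a difference of -4.8 points (-13.1 to 3.46, n = 62 bins, adjusted p = 0.363 in the same model). Members found in neither replicate were 57 in the domains (9.76%) and 156 in the rest (9.99%). The whole-series list is not independent of the replicate lists.

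Support followed the score, in the domains as elsewhere. In the best-scoring 25% of the whole-series list 154 of 162 domain members (95.1%) and 388 of 423 peaks of the rest (91.7%) were found in both replicates. In the lowest-scoring 25% it was 6 of 134 (4.48%) and 23 of 365 (6.30%). The median width of domain members was 400 bp where both replicates had them and 169 bp where neither did, and their median scores were 19.8 and 4.54.

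Between the replicate lists themselves, 272 of 468 domain peaks of replicate 1 (58.1%, interval 53.5 to 62.6%) were found in replicate 2, and 700 of 1318 in the rest (53.1%, 50.4 to 55.8%). In the other direction 293 of 446 domain peaks of replicate 2 (65.7%, 61.1 to 70.1%) were found in replicate 1, and 749 of 1107 in the rest (67.7%, 64.8 to 70.4%). Over all chromosomes the shares were 6054 of 11762 (51.5%) for replicate 1 peaks and 6459 of 9901 (65.2%) for replicate 2 peaks. The right domain returned fewer of its replicate 2 peaks than the left did, 143 of 236 (60.6%, 54 to 66.9%) against 150 of 210 (71.4%, 64.8 to 77.4%), with intervals that overlap and no test. For replicate 1 peaks the shares were 136 of 237 (57.4%) against 136 of 231 (58.9%). Over 269 pairs of matching domain peaks the scores of the 2 replicates correlated with a Spearman rho of 0.557 (Pearson r of log10 scores 0.583), and over 683 pairs in the rest with 0.478 (0.504). Pairs share the 2 libraries, so these are descriptions. Matching peaks were wider in replicate 1 for 70 of 133 pairs in the right domain, 90 of 136 in the left and 469 of 683 in the rest.

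Peaks found in a single replicate were divided differently along the chromosome. In the domains 118 of 256 such members (46.1%) came from replicate 2, with 70 of 139 (50.4%) in the right domain and 48 of 117 (41.0%) in the left. Over all chromosomes the share from replicate 2 was 2549 of 6658 (38.3%). The rest of IV as a whole had 285 of 721 (39.5%), 6.57 points lower than the domains (interval of the difference -3.39 to 16.5, n = 171 bins, adjusted p = 0.363, linear model with clustered errors). That average joins unlike stretches: 192 of 344 (55.8%) came from replicate 2 at the left end and 91 of 363 (25.1%) between the domains. Against the stretch between the domains alone, the domains were higher by 21 points (n = 124 bins, adjusted p = 1.50e-04 by the same model). The domain bins showed the same: replicate 2 had more peaks than replicate 1 in 25 of 62 and fewer in 28, while between the domains it had more in 3 of 65 and fewer in 54. The left end was like the domains in this, with more in 22 of 45 bins and fewer in 18. The right and left domains differed by 9.33 points (-7.89 to 26.6), which did not pass (n = 60 bins, adjusted p = 0.363, same model).

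**Figure D5:**
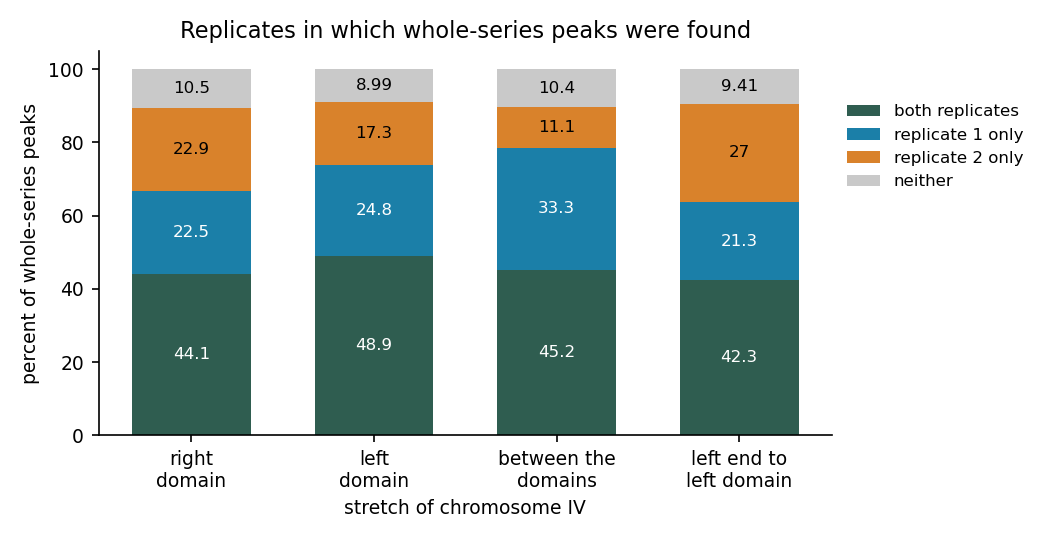
Percent of whole-series peaks (vertical axis) found in both ChIP replicates, in replicate 1 only, in replicate 2 only or in neither, for the right domain, the left domain, the stretch between them and the stretch at the left end. Shares found in both run from 42.3 to 48.9%, while the share of replicate 2 only is 22.9% in the right domain and 11.1% between the domains.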

How the data were processed

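The authors deposited 3 peak lists with a start, an end and a score for each peak, 1 per ChIP library and another for the series. Per the file headers, peaks came from MACS and coordinates are WS220. Per the submitters' processing notes, BWA and ce10 were used. Not given in the sources used here are the MACS version, its threshold, its control and how the whole-series list was made. Lists carry no read counts, so the depth behind a peak is unknown, and counting intervals (exact, 95%) cover counting error only.

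Density was tested by quasi-Poisson regression of 100-kb bin counts. Width, gap and support were tested by least squares with errors clustered on those bins. Gaps run between neighbouring peaks of the same stretch. All tests are two-sided, on the whole-series list unless a replicate list is named, with Benjamini-Hochberg adjustment over 10 tests, and an alternative's p takes its place among those 10. The span of IV is the largest peak end, 17.5 Mb. Named positions are, in each domain, the 5 best-scoring peaks found in both replicates, the 3 widest, the 3 longest gaps, the 3 fullest 20-kb windows, and the densest and sparsest bins. Members, measures and lists were chosen with earlier results of these data known. The code was tested on simulated lists. Software was statsmodels 0.14.6 on Python 3.11.15, with SciPy 1.17.1, pandas 2.3.3, NumPy 2.4.6 and matplotlib 3.10.9.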

Additional observations from a re-analysis of the deposited data

How the results depend on the processing

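Of 60 alternative values, 54 kept their direction and their side of the threshold, 3 newly passed, 2 no longer passed and 1 changed sign. The lower density of both domains kept its direction under each alternative tried. It ranged from -0.63 to -0.45 on the log2 scale with either replicate left out, and no longer passed for the left domain alone (-0.31) or in the replicate 2 list against the stretch between the domains (-0.18); the cause was not tested. Those 2 settings, the right domain alone, replicate 1 against the stretch between the domains and the removal of each domain's densest bin were chosen after the values were seen. Right against left density passed once peaks closer than 1 kb were merged (-0.56) and by the exact binomial test (-0.43), which treats peaks as independent. The replicate 2 share of singly supported peaks passed against the stretch between the domains alone (21 points). The width difference of right against left ran from -0.03 to 0.02 with either replicate left out, and was 0.02 in replicate 2 alone. No paired analysis was possible because peak lists were used of the ChIP libraries alone, and the inputs with the same numbers were not analysed here. No read depth stands behind these lists, so a sparse stretch cannot be told from one where peaks fell short of the authors' threshold.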
